A study of Mus musculus with 24 samples.

Results

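The genes described here are 10 genes of nitrogen disposal and amino acid breakdown in mouse liver: Nags, Cps1, Otc, Ass1, Asl and Arg1 of the urea cycle, and Gls2, Hal, Sds and Sdsl, which release ammonia from glutamine, histidine and serine. They are the rows with these symbols in a table of read counts per gene; the list itself was drawn up with earlier results of these data known. All 10 were measured and all 10 passed the filter on low counts, among 13773 genes tested. The libraries were made from livers of female NOD scid gamma (NSG) mice 8 weeks old, a strain that lacks T cells, B cells and natural killer cells and keeps its liver macrophages. Over 5 weeks all mice were given 2 injections a week by the tail vein, and livers were collected 2 days after the final dose. The control group received PBS. The other groups received about 10 µg per injection of extracellular vesicles (EV), the membrane particles that cells shed, from MCF10A, a non-tumorigenic human breast epithelial line, from MCF10A/miR-122, named for a microRNA that is abundant in hepatocytes, or from MDA-MB-231, a human breast cancer line. How miR-122 was introduced, and whether each library is a different mouse, is not given in the sources used here, so p-values measure the spread between these libraries. Each of the 4 groups had 6 libraries.

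Some features of the series touch every result below. The names of 12 libraries go against their labels: the 6 labelled MCF10A/miR-122 EV carry the number of the MDA-MB-231 line in their names, and the 6 labelled MDA-MB-231 EV carry that of miR-122. Groups are called here by their labels, and exchanging them exchanges every result of these 2 groups. The libraries also fall into 2 sets of 12, PBS with MCF10A EV and the other 2 groups together: Serpina3a, a secreted protease inhibitor gene, ranged from 109.6 to 325.4 CPM (the counts-per-million scale) among the first 12 and from 0.2854 to 5.852 among the others. Only MCF10A EV against PBS and MDA-MB-231 EV against MCF10A/miR-122 EV lie within a set, and in the other 4 comparisons set and treatment cannot be told apart. Total counts per library were 21336818 to 33732639. Liver identity was plain in all 24 libraries, with the albumin gene Alb at 72570 to 110000 CPM. In bulk tissue, fewer cells of a type and less RNA per cell cannot be told apart.

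The urea cycle turns ammonia into urea, which the kidney excretes. It starts in the mitochondrion, where Nags makes N-acetylglutamate, the obligate activator of Cps1, Cps1 joins ammonia and bicarbonate into carbamoyl phosphate, and Otc adds that to ornithine to give citrulline. In the cytosol, Ass1 joins citrulline with aspartate, Asl splits the product into arginine and fumarate, and Arg1 releases urea and restores ornithine. The cycle is most active in periportal hepatocytes, those nearest the incoming blood, where the glutaminase Gls2, the histidase Hal and the serine dehydratase Sds also act, while ammonia that escapes is caught by glutamine synthetase in pericentral cells. Glucagon and glucocorticoids are known to raise many of these enzymes.

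Of the 10 genes, 4 changed in at least 1 comparison. Sds, Asl and Arg1 were higher in the MCF10A/miR-122 EV group than in PBS. Nags was lower than in PBS in that group and in the MDA-MB-231 EV group. Against MCF10A EV, only Sds passed in MCF10A/miR-122 EV and only Nags in MDA-MB-231 EV. Against PBS, the MCF10A/miR-122 EV group had 4 of 10 genes past the threshold (adjusted p under 0.05, edgeR's quasi-likelihood test with Benjamini-Hochberg adjustment over all genes), 3 higher and 1 lower. In the same comparison 17.9% of all genes tested passed, 8.35% as higher and 9.53% as lower. The MDA-MB-231 EV group had 1 of 10 past the threshold against PBS, lower, beside 11.7% of all genes in either direction and 6.34% lower. Against MCF10A EV, the MCF10A/miR-122 EV group had 1 of 10 higher, beside 16.2% of all genes in either direction and 7.53% higher. The MDA-MB-231 EV group had 1 of 10 lower than MCF10A EV, beside 7.68% in either direction and 4.44% lower. With 10 genes, 1 call is 10% of them, near the shares over all genes; the 4 calls of the first comparison are 40% of them.

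Within a library set no member passed. MCF10A EV against PBS gave 0 of 10, also 0 at an unadjusted p under 0.05, with the smallest adjusted p at 0.4048 (edgeR), while 1.07% of all genes passed. MDA-MB-231 EV against MCF10A/miR-122 EV gave 0 of 10, and 2 at an unadjusted p under 0.05, with the smallest adjusted p at 0.284 (edgeR), while 0.254% of all genes passed. DESeq2 and limma-voom also called 0 in both. The median log2 fold change of the 10 genes was 0.01 in MCF10A EV against PBS, the same as for all genes. In MDA-MB-231 EV against MCF10A/miR-122 EV it was -0.22, beside 0.00 for all genes. Against PBS, across the sets, it was 0.19 in the MCF10A/miR-122 EV group and -0.02 in the MDA-MB-231 EV group. The median of all genes was 0.00 in both.

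**Figure D1:**
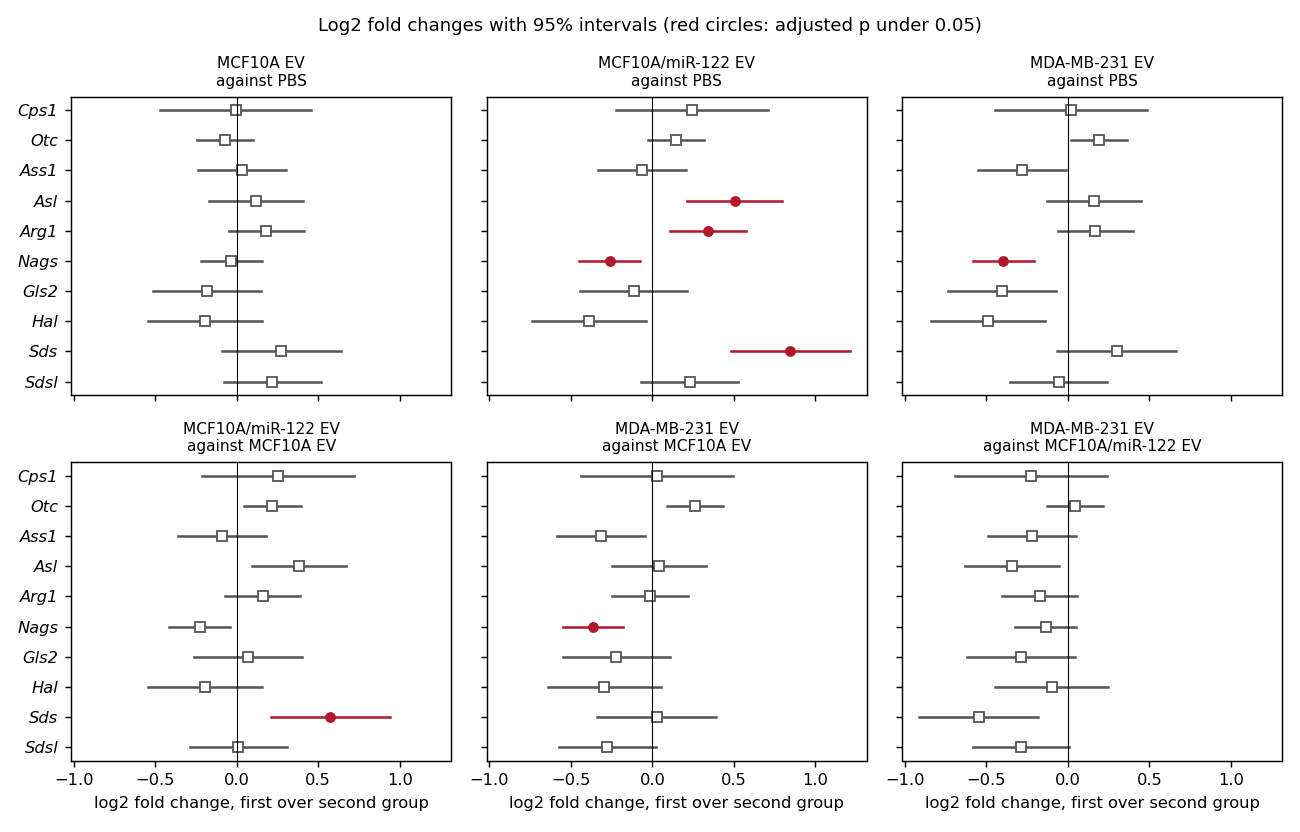
Log2 fold change (horizontal axis, first group over second) of each of the 10 genes in the 6 comparisons, with 95% intervals from the fit over all 24 libraries. Red circles mark an adjusted p under 0.05 and open squares the rest; Sds reaches 0.85 in MCF10A/miR-122 EV against PBS, and neither comparison within a library set (top left and bottom right) holds a red circle.

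Nags, the source of the activator of Cps1, was the one gene that passed in both of the vesicle groups with lower levels. The PBS libraries had 65.7 to 80.0 CPM with a median of 72.0. The MCF10A EV libraries had 59.5 to 89.5 CPM with a median of 67.1. Both ranges lie mostly above those of the other set, in which the MCF10A/miR-122 EV libraries had 47.4 to 65.4 CPM (median 61.6) and the MDA-MB-231 EV libraries 44.4 to 58.5 CPM (median 55.8). Every MDA-MB-231 EV library was below every PBS library and every MCF10A EV library, and every MCF10A/miR-122 EV library was below every PBS library. Groups that do not overlap were found for 6.22%, 5.05% and 5.88% of all genes in these 3 comparisons.

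The fall of Nags in MDA-MB-231 EV was -0.40 on the log2 scale against PBS (standard error, SE, 0.0896; edgeR adjusted p = 0.005193) and -0.36 against MCF10A EV (SE 0.0897; edgeR adjusted p = 0.01324). Both held with each library left out in turn. In MCF10A/miR-122 EV it was -0.26 against PBS (SE 0.0895; edgeR adjusted p = 0.04503) and -0.23 against MCF10A EV, which did not pass (edgeR adjusted p = 0.08578). The call against PBS was lost without PBS replicate 1, 2, 4 or 5, or without MCF10A/miR-122 EV replicate 1, 2, 3 or 5, with adjusted p up to 0.104 (edgeR). Within the second set, all 6 MDA-MB-231 EV libraries lay below the MCF10A/miR-122 EV median with overlapping ranges, and the difference did not pass (edgeR adjusted p = 0.7616). On the reference annotation (GENCODE M21), 443 bases of Nags exons, 21.8% of their length, lie opposite exons of Gm11586 on the other strand. Whether counting used strand is not given in the sources used here, so reads of the 2 genes cannot be told apart there. Gm11586 has no row among those used.

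Cps1, the entry enzyme, ranged more widely in CPM than the other 9. The PBS libraries had 1993 to 2804 CPM with a median of 2558, and the MCF10A EV libraries 1633 to 3410 CPM with a median of 2373. The MCF10A/miR-122 EV libraries had 1497 to 4047 CPM with a median of 3040, and the MDA-MB-231 EV libraries 1087 to 3580 CPM with a median of 2715. The 4 ranges overlap almost wholly, and the PBS range is the narrowest. The difference of MCF10A/miR-122 EV from PBS, 0.24 on the log2 scale (SE 0.223), did not pass (edgeR adjusted p = 0.4813), and its 95% interval, -0.22 to 0.71, takes in a rise of more than 1.5-fold.

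Otc, the last mitochondrial step, varied little. Its levels were 439 to 516 CPM in PBS (median 502), 401 to 522 CPM in MCF10A EV (median 466), 460 to 649.5 CPM in MCF10A/miR-122 EV (median 555) and 501 to 609 CPM in MDA-MB-231 EV (median 557). The second set sat somewhat higher, and all groups overlapped. The widest gap, MDA-MB-231 EV over MCF10A EV, was 0.26 on the log2 scale (SE 0.0829), with all 6 libraries above the MCF10A EV median, and just missed the threshold (edgeR adjusted p = 0.0537). It passed with DESeq2 (adjusted p = 0.0209) and limma-voom (adjusted p = 0.0457), and in edgeR without MCF10A EV replicate 5 or 6 or MDA-MB-231 EV replicate 6.

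**Figure D2:**
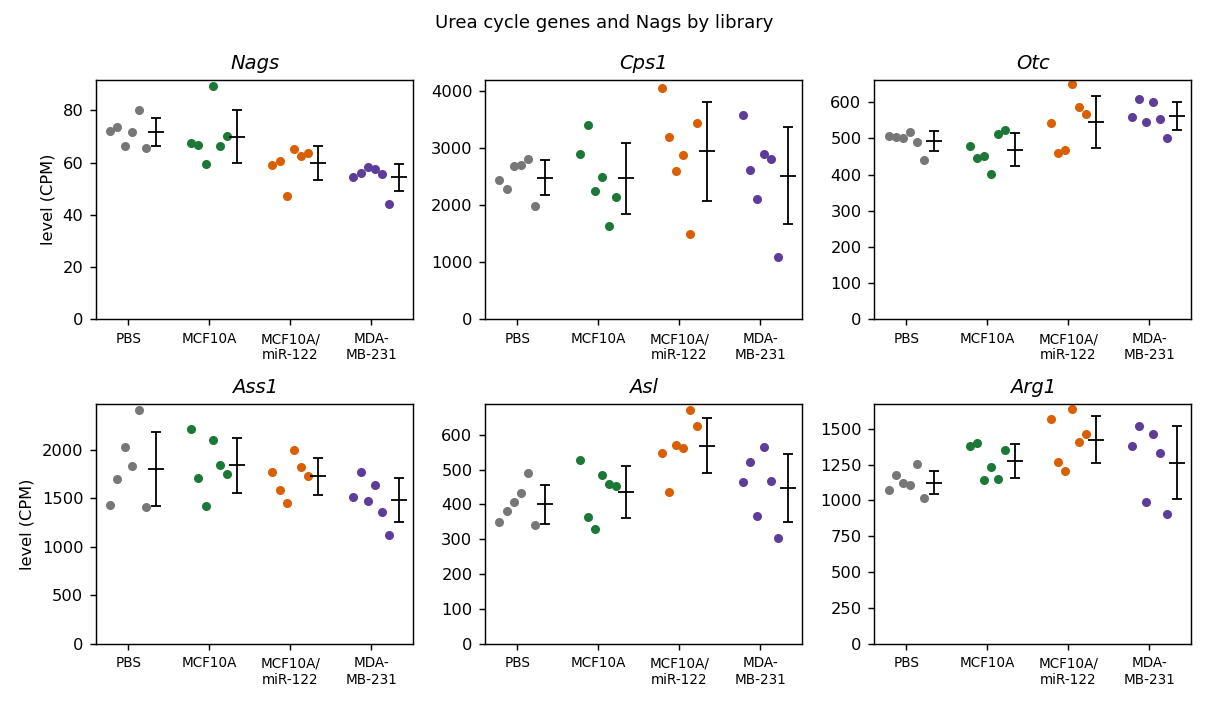
Level in CPM (vertical axis from 0) of Nags and the 5 urea cycle enzymes in each of 24 libraries, 6 points a group, with mean and SD in black beside them. The MDA-MB-231 EV points of Nags, 44.4 to 58.5 CPM, all lie below the lowest PBS point at 65.7 CPM, while Cps1 spreads from 1087 to 4047 CPM over all groups.

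Ass1, the argininosuccinate synthetase gene, cannot be read from its own row alone. The mouse genome holds a processed pseudogene of it, Gm5424, on chromosome 10 (Ass1 itself is on chromosome 2), and the table lists Gm5424 at a mean of 2840 CPM, above the 1712 CPM of Ass1. Over the 1236 coding bases of Ass1 the 2 sequences were identical at 1230 (99.5%) with no gap, and the longest stretch without a mismatch was 398 bases. The stretch below, coding bases 370 to 429 counted from the start codon, is the one shown because it holds 2 of the 6 mismatches; they are in capitals, and the sequences are from the GENCODE M21 transcripts, 5′ to 3′.
Ass1: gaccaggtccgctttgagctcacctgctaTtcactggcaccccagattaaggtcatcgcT
Gm5424: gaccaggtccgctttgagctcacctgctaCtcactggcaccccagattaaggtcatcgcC
A read that covers neither capital fits both genes in this stretch. Of all stretches of 32 bases in Ass1 transcripts, 42.9% also occur in Gm5424, and how such reads were assigned is not given in the sources used here.

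The share of the summed Ass1 and Gm5424 counts that fell in the Ass1 row split by library set. It was 39.72 to 40.39% in PBS and 39.71 to 40.91% in MCF10A EV. It was 34.18 to 36.61% in MCF10A/miR-122 EV and 34.26 to 35.79% in MDA-MB-231 EV. No library of one set reached the range of the other, and set and treatment cannot be told apart. In the Ass1 row, PBS had 1413 to 2409 CPM (median 1768), MCF10A EV 1425 to 2212 CPM (median 1797), MCF10A/miR-122 EV 1449 to 1999 CPM (median 1748) and MDA-MB-231 EV 1126 to 1769 CPM (median 1497). The MDA-MB-231 EV group was the lowest by that row, with a log2 difference of -0.28 from PBS (edgeR adjusted p = 0.159) and -0.31 from MCF10A EV (edgeR adjusted p = 0.1454).

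With the 2 rows summed, these differences shrank to -0.09 from PBS (edgeR adjusted p = 0.7113) and -0.11 from MCF10A EV (edgeR adjusted p = 0.6686). The MCF10A/miR-122 EV group turned from -0.06 to 0.13 against PBS (edgeR adjusted p = 0.5259 for the sum) and from -0.09 to 0.10 against MCF10A EV (edgeR adjusted p = 0.6338 for the sum). Within a set, where the split did not move, row and sum gave nearly the same: 0.03 and 0.02 for MCF10A EV against PBS, and -0.22 and -0.22 for MDA-MB-231 EV against MCF10A/miR-122 EV. The summed level was 4494 ± 926 CPM (SD, n = 6) in PBS, 4569 ± 675 in MCF10A EV, 4913 ± 533 in MCF10A/miR-122 EV and 4232 ± 656 in MDA-MB-231 EV. Neither reading passed the test in any of the 6 comparisons. Other stretches of 32 bases in the members were almost free of such copies: at most 1.02% of them, in Hal, occurred in any other gene's transcripts.

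**Figure D3:**
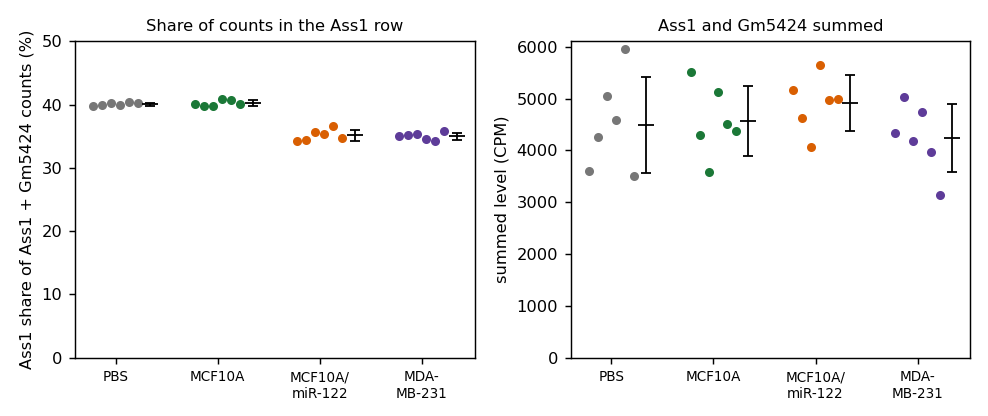
Left, the share of the summed Ass1 and Gm5424 counts that fell in the Ass1 row (percent, axis from 0) in each library; right, the summed level in CPM, with mean and SD in black. The share is 39.71% or more in all 12 PBS and MCF10A EV libraries and 36.61% or less in the other 12, while the summed levels of the 4 groups overlap.

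Asl, which releases arginine and fumarate, rose in the MCF10A/miR-122 EV group. PBS libraries had 342 to 492 CPM with a median of 395, and MCF10A EV libraries 329 to 528 CPM with a median of 455. MCF10A/miR-122 EV libraries had 435 to 670 CPM with a median of 567, and MDA-MB-231 EV libraries 304 to 567 CPM with a median of 466. All 6 MCF10A/miR-122 EV libraries were above the PBS median, with some overlap of the ranges. The rise over PBS was 0.50 on the log2 scale (SE 0.139; edgeR adjusted p = 0.01338) and passed with each library left out in turn. Against MCF10A EV it was 0.38 (edgeR adjusted p = 0.05932); it passed with DESeq2 (adjusted p = 0.0321), and in edgeR without MCF10A EV replicate 1 or MCF10A/miR-122 EV replicate 2. MDA-MB-231 EV lay below MCF10A/miR-122 EV by -0.34, which did not pass (edgeR adjusted p = 0.4569).

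Arg1, the arginase that releases urea, showed a smaller rise in the same group. Its levels were 1017 to 1255 CPM in PBS (median 1113.5), 1142.5 to 1400 CPM in MCF10A EV (median 1290.4), 1206 to 1635 CPM in MCF10A/miR-122 EV (median 1436) and 903 to 1522 CPM in MDA-MB-231 EV (median 1352). All 12 libraries of the MCF10A EV and MCF10A/miR-122 EV groups were above the PBS median, and the ranges overlapped. The rise of MCF10A/miR-122 EV over PBS was 0.34 on the log2 scale (SE 0.111; edgeR adjusted p = 0.03492). It was lost without PBS replicate 1, 3, 4 or 6, or without MCF10A/miR-122 EV replicate 1, 4, 5 or 6, with adjusted p up to 0.0784 (edgeR). Over MCF10A EV the difference of MCF10A/miR-122 EV was 0.16, which did not pass (edgeR adjusted p = 0.3559). MCF10A EV itself was 0.18 above PBS, which did not pass either (edgeR adjusted p = 0.4048).

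Sds, the cytosolic serine dehydratase that makes pyruvate and ammonia, had the largest change of the 10. PBS libraries had 98.4 to 212 CPM with a median of 147, and MCF10A EV libraries 137 to 229 CPM with a median of 177. MCF10A/miR-122 EV libraries had 225 to 320 CPM with a median of 259, all above the highest PBS library. Groups did not overlap for 5.88% of all genes in that comparison. MDA-MB-231 EV libraries had 138 to 287 CPM with a median of 173, close to those of MCF10A EV. The rise of MCF10A/miR-122 EV was 0.85 on the log2 scale over PBS, or 1.80-fold (SE 0.176; edgeR adjusted p = 0.001773), and held with each library left out in turn. Over MCF10A EV it was 0.57 (SE 0.175; edgeR adjusted p = 0.02653), with 6 of 6 libraries above the MCF10A EV median. That call was lost without MCF10A EV replicate 2 or 5 or MCF10A/miR-122 EV replicate 3, with adjusted p up to 0.0658 (edgeR).

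In MDA-MB-231 EV the Sds difference from PBS was 0.30 (edgeR adjusted p = 0.2757). Within the second set, MDA-MB-231 EV was below MCF10A/miR-122 EV by -0.55 (95% interval -0.91 to -0.18), which did not pass over all genes (edgeR adjusted p = 0.284; unadjusted p = 0.004557). Opposite strand exons of Plbd2 cover 28% of the Sds exons and those of Gm15690, which has no row among those used, 10.9%. Plbd2 had 66.4 CPM in PBS and 79.2 CPM in MCF10A/miR-122 EV, a difference of 12.9 CPM beside 121 CPM for Sds. Plbd2 itself passed as higher in that comparison (0.26 on the log2 scale, edgeR adjusted p = 0.0421). The part of Plbd2 in the Sds counts was not tested.

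Sdsl, a serine dehydratase-like gene, was the least abundant of the 10 and passed in no comparison. It had 7.10 to 13.1 CPM in PBS (median 9.49), 9.92 to 13.2 CPM in MCF10A EV (median 11.7), 9.10 to 13.7 CPM in MCF10A/miR-122 EV (median 11.9) and 8.05 to 12.9 CPM in MDA-MB-231 EV (median 9.18). The groups overlapped throughout, on 200 to 432 counts a library.

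Gls2, the liver-type glutaminase, and Hal, the first enzyme of histidine breakdown, were highest in PBS, and neither passed. Gls2 had 328 to 629 CPM in PBS (median 429), 353 to 507 CPM in MCF10A EV (median 374), 371 to 493 CPM in MCF10A/miR-122 EV (median 406) and 203 to 416 CPM in MDA-MB-231 EV (median 367). All MDA-MB-231 EV libraries were below the PBS median, and the log2 difference was -0.40 (SE 0.159; edgeR adjusted p = 0.09921). Hal had 187 to 290 CPM in PBS (median 230.8), 181 to 250 CPM in MCF10A EV (median 205), 154 to 258 CPM in MCF10A/miR-122 EV (median 170) and 87.8 to 231.1 CPM in MDA-MB-231 EV (median 181). The ranges overlapped in every pair of groups.

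The Hal difference from PBS was -0.39 in MCF10A/miR-122 EV (edgeR adjusted p = 0.1095) and -0.49 in MDA-MB-231 EV (SE 0.167; edgeR adjusted p = 0.05722). The second of these passed with DESeq2 (adjusted p = 0.0329), limma-voom (adjusted p = 0.0446) and the replicate block, and in edgeR without MDA-MB-231 EV replicate 2 or PBS replicate 6, and was -0.35 (adjusted p = 0.115) without MDA-MB-231 EV replicate 6. Leaving out PBS replicate 6 also brought Gls2 past the threshold.

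**Figure D4:**
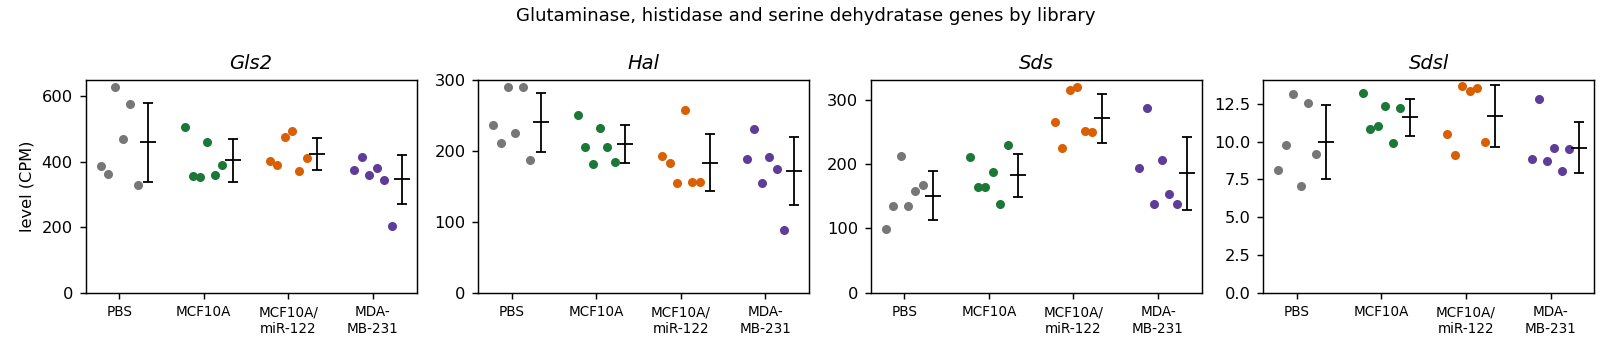
Level in CPM (vertical axis from 0) of Gls2, Hal, Sds and Sdsl in each of 24 libraries, 6 points a group, with mean and SD in black beside them. All 6 MCF10A/miR-122 EV points of Sds, 225 to 320 CPM, lie above the highest PBS point at 212 CPM. Groups do not overlap for 5.88% of all genes in that comparison. A single MDA-MB-231 EV library is far below the rest for Gls2, at 203 CPM.

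The order of the group means differed from gene to gene. For Nags and Hal it ran from PBS down through MCF10A EV and MCF10A/miR-122 EV to MDA-MB-231 EV, and for Sds and Asl from MCF10A/miR-122 EV down through MDA-MB-231 EV and MCF10A EV to PBS. No neighbours in any of the 10 orders differed past the threshold, and the highest and lowest groups did only for Nags, Asl, Arg1 and Sds. The enzymes of the cycle did not all pass in 1 direction: in MCF10A/miR-122 EV against PBS, Asl and Arg1 passed as higher and Nags as lower, while Cps1, Otc and Ass1 did not pass. Per kilobase of exon, Ass1 stood first (1010 CPM per kb, uncertain for the reason above), then Arg1 (861 CPM per kb), Cps1 (469), Gls2 (159), Asl (155), Sds (153.5), Otc (121.97), Hal (37.8), Nags (31.5) and Sdsl (7.16).

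The SD of log2 CPM within groups, pooled over the 4 groups, was highest for Cps1, at 0.44, above 96.3% of the 7327 genes at least as abundant as Sdsl, whose median was 0.16. In PBS alone Cps1 varied less (coefficient of variation, CV, 12.3%) than Gls2 (26.55%) or Sds (25.5%), and over all 24 libraries Sds had the larger CV (30.7% against 26.1%). The pooled SD was 0.30 to 0.32 for Gls2, Hal and Sds and lowest for Otc, at 0.14, and Nags, at 0.16. MDA-MB-231 EV replicate 6 had the lowest level of its group for 8 of the 10 genes, with a median deviation of -0.42 on the log2 scale from the group mean and -1.12 for Cps1. In that library 8 of 10 periportal landmark genes were below their group mean (median deviation -0.10). Of the pericentral ones 4 of 13 were below (median deviation 0.24). PBS replicate 6 was lowest of its group for 8 of 10 genes too, with a median deviation of -0.19. Its periportal landmarks were below in 8 of 10 (-0.08) and its pericentral ones in 2 of 13 (0.265). Other libraries differed. In PBS replicate 2 all 10 periportal landmarks were below (-0.25, pericentral 0.41), while the members had a median deviation of -0.06. In MCF10A EV replicate 3 all 10 members were below (-0.17), with periportal landmarks at 0.15. The part of the landmark shifts in the low levels was not tested.

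**Figure D5:**
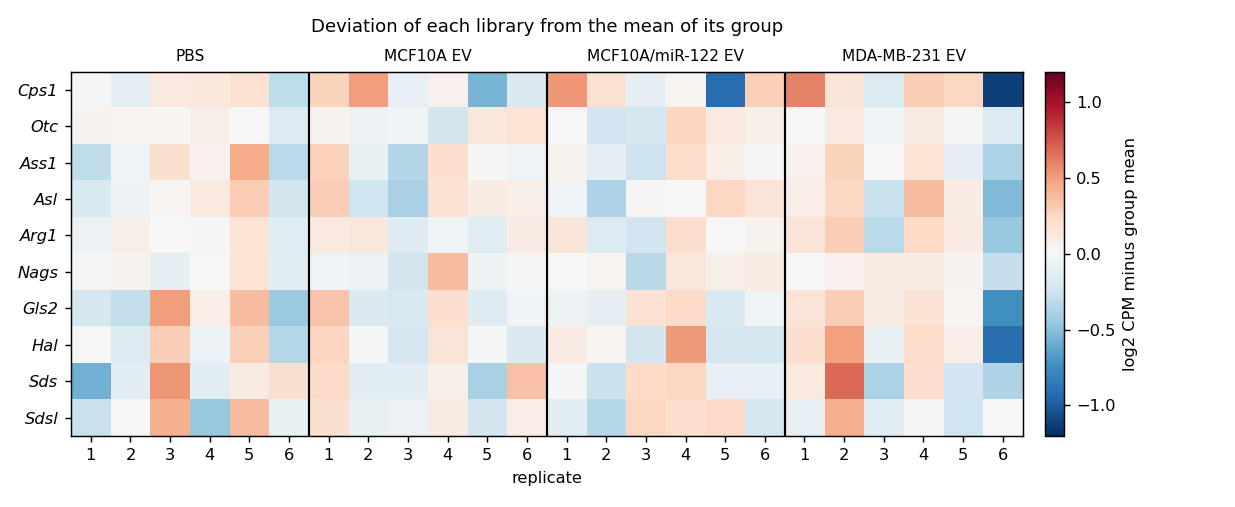
Deviation of each library (columns, by group and replicate) from the mean of its own group, in log2 CPM (colour), for the 10 genes (rows). The last column, MDA-MB-231 EV replicate 6, is below its group mean for 9 of 10 genes, with Cps1 at -1.12, and the Cps1 row holds the deepest colours.

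Across the 24 libraries, with group means removed, 44 of 45 pairs of the 10 genes had a positive Pearson correlation, with a median of 0.50, and 26 passed an adjusted p of 0.05 over the 45 pairs (permutation within groups). Over all pairs of the 7327 genes at least as abundant as Sdsl, the median was 0.02, 51.7% were positive and 8.53% exceeded the median of the 45. For some pairs below, r is also given without the 2 libraries farthest from the median of the first gene named. The second gene had no part in that choice, and group means were not recomputed. The closest pair was Gls2 and Hal (r = 0.838, rho = 0.753; permutation p = 2e-05 and 0.00016; adjusted p = 0.0003 and 0.00144), with r = 0.742 after leaving out the 2 farthest libraries. Ass1 and Asl, which act one after the other, had r = 0.777 and rho = 0.777 (permutation p = 2e-05 and 7e-05; adjusted p = 0.0003 and 0.00101), and r = 0.708 without the 2 farthest. Sds and Sdsl had r = 0.739 and rho = 0.774 (permutation p = 0.00021 and 3e-05; adjusted p = 0.00135 and 0.00101), and r = 0.608 without the 2 farthest.

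Over all 45 pairs the median was 0.40 in the PBS and MCF10A EV libraries and 0.64 in the others. In the 2 sets, in that order, r was 0.908 and 0.868 for Gls2 and Hal, 0.907 and 0.684 for Ass1 and Asl, and 0.743 and 0.735 for Sds and Sdsl, each over 12 libraries. Other pairs differed between the sets without a test of that difference, such as Otc and Ass1 (0.0768 and 0.847) and Otc and Nags (-0.299 and 0.696). Cps1 stood outside for some partners, with r = 0.0548 and rho = -0.0391 to Otc (permutation p = 0.827 and 0.869; adjusted p = 0.865 and 0.869), the enzyme that takes up its product, and r = -0.0248 without the 2 farthest. Without MDA-MB-231 EV replicate 6 the median over pairs was 0.43 and 42 of 45 were positive. The group means removed there still included that library, so its own pull on them stayed in the other libraries of its group. All these points share the library and its scaling.

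The gene most like each member in the same 24 libraries was found by that correlation and is given as a description. Nags was nearest to Prodh, the proline dehydrogenase (r = 0.843). Gls2 was nearest to Hgd, the homogentisate dioxygenase of tyrosine breakdown (r = 0.928), and Arg1 to Aass of lysine breakdown (r = 0.818). Sds was nearest to Agxt2l1, the phosphoethanolamine lyase (r = 0.799), Otc to the deacetylase Aadac (r = 0.881) and Cps1 to Copg2, a coatomer subunit (r = 0.931). Ass1 was nearest to its own pseudogene Gm5424 (r = 0.987), then to Qdpr (r = 0.864), which recycles the cofactor of phenylalanine hydroxylase. Asl was nearest to the sulfotransferase gene Sult1a1 (r = 0.79), Hal to Arhgap26 (r = 0.868) and Sdsl to the ribosomal protein gene Rpl4 (r = 0.797).

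The wider amino acid breakdown machinery moved in few genes and in both directions. In 7 lists with 88 genes tested, covering neighbours of the urea cycle and the breakdown of histidine, serine, threonine and glycine, proline and asparagine, aromatic, branched-chain and sulfur amino acids and lysine, 6 rose and 5 fell in MCF10A/miR-122 EV against PBS (12.5%, beside 17.9% of all genes). In MDA-MB-231 EV against PBS 6 rose and 4 fell (11.4%, beside 11.7%). Against MCF10A EV, 4 rose and 8 fell in MCF10A/miR-122 EV (13.6%, beside 16.2%), and 1 rose and 3 fell in MDA-MB-231 EV (4.55%, beside 7.68%). Within a set, 0 of 88 passed in edgeR in either comparison. The shares are below those of all genes, and 7 of the 11, 4 of the 10, 6 of the 12 and 2 of the 4 calls held with each library left out in turn.

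The largest rise was in Tat, the tyrosine aminotransferase, a classic glucocorticoid and glucagon target. Tat had 973 ± 459 CPM (SD, n = 6) in PBS, 1249 ± 282.5 in MCF10A EV, 2873 ± 701 in MCF10A/miR-122 EV and 2417 ± 311 in MDA-MB-231 EV. Its log2 rise over PBS was 1.56 (edgeR adjusted p = 8.45e-05) and 1.31 (edgeR adjusted p = 0.0008787) in the last 2 groups. Gpt2, the mitochondrial alanine aminotransferase, rose by 0.70 in MCF10A/miR-122 EV against PBS (edgeR adjusted p = 0.001757). Both held with each library left out in turn.

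Among the genes that fell, Amt, a subunit of the glycine cleavage system, was lower by -0.56 in MCF10A/miR-122 EV against PBS (edgeR adjusted p = 0.0008325). Bcat2, the mitochondrial branched-chain aminotransferase, was lower by -0.52 (edgeR adjusted p = 0.0006945), and Bckdk, the kinase that restrains branched-chain ketoacid oxidation, by -0.60 (edgeR adjusted p = 0.0003047). In MDA-MB-231 EV against PBS Bcat2 was at -0.40 (edgeR adjusted p = 0.008862) and Bckdk at -0.51 (edgeR adjusted p = 0.002386). In that comparison the branched-chain genes Hibadh (0.25, edgeR adjusted p = 0.03042) and Auh (0.24, edgeR adjusted p = 0.02511) rose, calls that each held in 6 of 12 fits with a library left out. The calls of Bcat2 and Bckdk, and that of Amt in MCF10A/miR-122 EV, held with each library left out in turn; that of Amt in MDA-MB-231 EV (-0.32, edgeR adjusted p = 0.04662) held in 3 of 12.

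Of 16 regulators of amino acid catabolism, 5 rose and 1 fell in MCF10A/miR-122 EV against PBS, and 4 rose and 2 fell in MDA-MB-231 EV against PBS, beside 17.9% and 11.7% of all genes. With each library left out in turn, 5 of the first 6 calls and 3 of the second 6 held throughout. Against MCF10A EV, 3 rose and 3 fell in MCF10A/miR-122 EV and 1 rose and 1 fell in MDA-MB-231 EV. The shares of all genes were 16.2% and 7.68%, and 5 of those 6 calls and both of the others held throughout. Klf15, a glucocorticoid-induced factor that drives amino acid breakdown genes, rose from 122.4 ± 26.5 CPM (SD, n = 6) in PBS to 250 ± 37.5 in MCF10A/miR-122 EV, a log2 change of 1.03 (edgeR adjusted p = 9.519e-06), and to 244 ± 12.8 in MDA-MB-231 EV, a log2 change of 1.00 (edgeR adjusted p = 2.229e-05). In MCF10A EV it was 165 ± 31.5 CPM, 0.43 above PBS, which did not pass (edgeR adjusted p = 0.1057). Klf15 was above MCF10A EV by 0.60 in MCF10A/miR-122 EV (edgeR adjusted p = 0.002723) and by 0.57 in MDA-MB-231 EV (edgeR adjusted p = 0.008019).

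Cebpb, a factor of acute and fasting responses, rose by 1.48 over PBS in MCF10A/miR-122 EV (edgeR adjusted p = 0.0002639), and Ppargc1a, the coactivator of the fasting response, by 1.48 (edgeR adjusted p = 0.001133). In MDA-MB-231 EV their rises of 0.82 (edgeR adjusted p = 0.03149) and 0.88 (edgeR adjusted p = 0.04983) held in 6 and 2 of the 12 fits with a library left out. Foxa2, a hepatocyte forkhead factor, fell by 0.53 in MCF10A/miR-122 EV (edgeR adjusted p = 0.04998; held in 3 of 12 such fits) and by 0.76 in MDA-MB-231 EV (edgeR adjusted p = 0.009079) against PBS. It fell by 0.97 in MCF10A/miR-122 EV (edgeR adjusted p = 0.0008143) and by 1.21 in MDA-MB-231 EV (edgeR adjusted p = 0.0001653), both against MCF10A EV.

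Position in the lobule was followed with landmark genes. Of 10 periportal landmarks other than the members, 1 rose and 1 fell in each of the 2 groups of the second set against PBS, where 17.9% and 11.7% of all genes passed. Pck1, the gluconeogenic enzyme, rose by 1.31 (edgeR adjusted p = 0.002111) and 1.27 (edgeR adjusted p = 0.0041), and the cadherin gene Cdh1 fell by 0.69 and 0.74, the calls of Cdh1 holding in 7 and 6 of 12 fits with a library left out. Of 13 pericentral landmarks, 2 rose and 1 fell in MCF10A/miR-122 EV and 3 rose in MDA-MB-231 EV against PBS, beside the same 17.9% and 11.7%. Cyp1a2 (0.58) and Slc1a2 (0.69) rose and Rnf43 (-0.55) fell in the first, holding in 12, 11 and 4 of 12 fits with a library left out, and Cyp2e1 (0.50), Cyp1a2 (0.42) and Lect2 (0.31) rose in the second, holding in 3, 9 and 2 of 12. The list medians were 0.09 and 0.06 for periportal and 0.22 and 0.31 for pericentral landmarks, beside 0.00 for all genes. Their part in the changes of Nags, Asl, Arg1 and Sds was not tested. Summed macrophage markers were 310 to 380 CPM in PBS and 294 to 354 CPM in MCF10A EV. They were 332.5 to 780 CPM in MCF10A/miR-122 EV and 258 to 387 CPM in MDA-MB-231 EV. Sums of endothelial, stellate and cholangiocyte markers in MCF10A/miR-122 EV overlapped those of PBS, at 142.5 to 316 beside 215 to 277 CPM for endothelium. The part of these cell types was not tested either.

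Clock genes, which pace many liver enzymes over the day, passed in 5 of the 6 comparisons. Of 10 tested, 6 rose and 3 fell in MCF10A/miR-122 EV and 7 rose and 2 fell in MDA-MB-231 EV against MCF10A EV, 3 rose and 2 fell in MCF10A/miR-122 EV and 2 rose and 2 fell in MDA-MB-231 EV against PBS, 2 fell in MCF10A EV against PBS, and 0 passed in edgeR between the 2 groups of the second set. All genes passed at 16.2%, 7.68%, 17.9%, 11.7%, 1.07% and 0.254% in the same order. With each library left out in turn, 8 of the 9, 7 of the 9, 4 of the 5, 3 of the 4 and 0 of the 2 calls held; Dbp and Per3 in MCF10A EV against PBS held in 7 and 9 of 12 fits and Tef in MCF10A/miR-122 EV against PBS in 3. Arntl, the activator of the loop, was -2.91 in MCF10A/miR-122 EV against MCF10A EV (edgeR adjusted p = 1.861e-05). The hour at which livers were taken is not given in the sources used here, and the part of clock phase in the changes of Nags, Asl, Arg1 and Sds was not tested.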

How the data were processed

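The authors deposited read counts per gene and library, not normalized. The submitters' processing notes name TopHat2, the mm9 genome and bcl2fastq 2.18.0.12, and the labels name a kit that keeps the strand of mRNA. No source used here names the counter, its annotation or strand setting, or says how it treated reads that fit more than 1 place. Of 23240 rows, 27 that share 11 symbols (0.0744% of counts) were left out. All 24 libraries were fitted in 1 model per gene with edgeR 4.0.16 (TMM scaling, filterByExpr, quasi-likelihood test, Benjamini-Hochberg over 13773 genes) in R 4.3.3; the threshold was an adjusted p of 0.05. Levels are CPM on TMM-scaled totals, and intervals are 95% with 20 degrees of freedom. Correlations used log2 CPM (prior count 2) minus group means and 100000 permutations within groups, whose smallest p is 1e-05. Alternatives were DESeq2 1.42.0, limma-voom (limma 3.58.1), RLE scaling, no filter, a filter of 5 CPM in 6 libraries, the 12 libraries compared alone, the replicate block, each library left out, the identities in the library names and, chosen after seeing the data, Ass1 and Gm5424 summed. Sequences, exon lengths and overlaps are from GENCODE M21, another build than mm9, so no coordinates are given. The members and lists were chosen with earlier results of these data known. All 10 members are named; of each other list at most 6 genes, those with the smallest p over the 6 comparisons, are named, and 2 genes most like each member were found. Only the edgeR fit, with its contrast of MCF10A/miR-122 EV against PBS, was tested on simulated counts.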

Additional observations from a re-analysis of the deposited data

Results flagged for a closer look

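In a group of 6, a library was picked out where its gap to the nearest other was, as a share of the group's range, over the 95% critical value of Dixon's test. Of 40 combinations of gene and group, 6 were; chance gives about 1 in 20. Otc in PBS replicate 6 was 439 CPM, beside 489 to 516 in the others. Nags was picked out in 3 groups: MCF10A EV replicate 4 had 89.5 CPM, beside 59.5 to 70.2, MCF10A/miR-122 EV replicate 3 had 47.4 CPM, beside 59.1 to 65.4, and MDA-MB-231 EV replicate 6 had 44.4 CPM, beside 54.4 to 58.5. Without the first of these the Nags difference of MDA-MB-231 EV from MCF10A EV was -0.28 (edgeR adjusted p = 0.0425), and without the last it was -0.31 (edgeR adjusted p = 0.0348) and -0.34 from PBS (edgeR adjusted p = 0.0163). Gls2 in MDA-MB-231 EV replicate 6 was 203 CPM, beside 345 to 416, and Sdsl in MDA-MB-231 EV replicate 2 was 12.9 CPM, beside 8.05 to 9.59.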

How the results depend on the processing

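Member calls within a library set were 0 in every alternative, with 0 to 0 when each library was left out. For MCF10A/miR-122 EV against PBS the 4 calls became 2 to 4 with a library left out (2 without PBS replicate 1 or 4 or MCF10A/miR-122 EV replicate 1 or 5) and 1 by the library names; Nags was lost without the filter (-0.26, adjusted p = 0.0578). For MDA-MB-231 EV against PBS the 1 call became 2 with DESeq2, limma-voom, the strict filter or the replicate block (Hal joining Nags), 4 by the library names, and 1 to 3 with a library left out (2 without MDA-MB-231 EV replicate 2, 3 without PBS replicate 6). For MCF10A/miR-122 EV against MCF10A EV the 1 call became 3 with DESeq2, 2 with the strict filter or the replicate block (Asl joining Sds), and 0 to 3 with a library left out. For MDA-MB-231 EV against MCF10A EV the 1 call became 2 with DESeq2, limma-voom, the strict filter or only the 12 libraries (Otc joining Nags), and 1 to 2 with a library left out. The replicate block changed no other member call. Same-numbered libraries correlated from -0.43 to 0.374, with 1 to 3 of 6 pairs over 0.1. Their mean correlation was 0.101 for MCF10A/miR-122 EV against PBS, beside -0.018 for differently numbered libraries. It was 0.104 for MCF10A/miR-122 EV against MCF10A EV, beside -0.0208. In the remaining comparisons the mean was -0.0394 to 0.0274. Whether same-numbered libraries share more than a number cannot be told from these values. The cause of the changes in member calls was not tested. The sum of Ass1 and Gm5424 reversed Ass1 to 0.129 against PBS and 0.105 against MCF10A EV in MCF10A/miR-122 EV. By the library names MDA-MB-231 EV against MCF10A/miR-122 EV reversed by construction: Ass1 0.22, Asl 0.343, Sds 0.546, Otc -0.0424. With a library left out, signs turned for Ass1 in MCF10A EV against PBS (-0.0432 to 0.131), Ass1 in MCF10A/miR-122 EV against PBS (-0.128 to 0.0378) and Otc in MDA-MB-231 EV against MCF10A/miR-122 EV (-0.00389 to 0.0929). Over all genes, MCF10A EV against PBS had 147 calls, 414 with DESeq2, 27 with only the 12 libraries and 26 to 741 with a library left out; MDA-MB-231 EV against MCF10A/miR-122 EV had 35, 98, 23 and 13 to 82, and 15 with the strict filter. The library names exchange 2463 with 1607 against PBS and 2237 with 1058 against MCF10A EV. Sdsl rests on 200 to 432 counts a library, the fewest of the 10.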
